A study of Homo sapiens with 117 samples.

Results

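The 4 human HOX gene clusters were examined as binding targets of CTCF in 24 ChIP-seq peak lists. A peak was taken when its summit lay in chr7:27050001-27300000 (HOXA), chr17:48500001-48760000 (HOXB), chr12:53900001-54080000 (HOXC) or chr2:176050001-176230000 (HOXD), in GRCh38 coordinates. In all, 4589 of 6621457 peaks met this rule, which is 0.0693% of the peaks for windows that make up 0.0282% of chromosomes 1 to 22, X and Y. The starts of all 39 HOX genes of the annotation lie in the windows, and the genes at cluster ends described here are HOXA13, HOXB1 and HOXB13, HOXC4 and HOXC13, and HOXD1 and HOXD13.

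The cells were DIvA cells, a U2OS osteosarcoma line in which an estrogen receptor domain is fused to the restriction enzyme AsiSI. Treatment with 4-hydroxytamoxifen (4-OHT, 300 nM for 4 h) sends the enzyme to the nucleus, where it cuts DNA, and these cells are called +DSB, while untreated cells are called −DSB. Lentivirus had been used to express IDH1WT or the cancer mutant IDH1R132H, and TET1 CD and TET1 dCD cells are IDH1R132H cells that in addition overexpress the catalytic domain of TET1 or its catalytically dead form. The study asked whether CTCF binding and chromatin contacts around breaks depend on the IDH1 mutation. The lists comprised 3 of IDH1WT −DSB, 4 of IDH1WT +DSB, 4 of IDH1R132H −DSB, 4 of IDH1R132H +DSB, 2 each of TET1 CD −DSB and +DSB, and 3 and 2 of TET1 dCD −DSB and +DSB. For 6 pairs of replicate lists, read numbers at common summits did not differ beyond the sampling noise (chi-square test), and the mean of each pair stood for 1 sample. TET1 CD −DSB replicates 1 and 2 did not differ beyond it either and were kept as 2 samples, because no other pair of that condition was there for comparison and their difference was not smaller than the noise beyond chance. Read numbers were recovered from the step size of the fold values. In IDH1WT +DSB replicate 3, 88.9% of folds lay on whole steps, against 100% in the other lists. Its joining with replicate 4 is therefore less certain. The resulting 18 samples were, in the same order, 2, 3, 3, 3, 2, 1, 2 and 2.

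HOX genes encode homeodomain transcription factors that set positional identity along the body axis, and the order of the genes on the chromosome matches the order in which they are expressed. CTCF is a zinc-finger protein that stops cohesin at loop anchors, and sites between HOX genes are known to separate active from repressed stretches of a cluster. Its motif is directional, and methylation of CpG within the motif can block binding. The IDH1R132H enzyme makes an oncometabolite that inhibits TET enzymes, which remove DNA methylation. Peak lists show where CTCF was found and how strongly, and they hold no measurement of methylation, chromatin contact or expression, so no site is called a boundary.

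The sequences of 10 of the 17 motif matches at strong HOX sites are given below. They are all those of HOXA, with examples from HOXB and HOXD that include the one near HOXB13 and the one between HOXD13 and HOXD12, shown for the letters on which the motif, its direction and its CpG content were read. Each is the best match to a 20 bp CTCF matrix learned from 18600 strong sites outside the windows, taken from the GRCh38 genome and written 5′ to 3′ on the strand of the match, with the 12-base core in capitals.
HOXA4 coding exon (chr7:27130220-27130239, minus strand): cgtcCCGGCAGGGGGCagcg
HOXA5/HOXA6 (chr7:27143912-27143931, minus strand): gcctCCAGCGGGTGGCgctc
HOXA7/HOXA9 (chr7:27161134-27161153, minus strand): gcggCCAGCAGATGGCagtg
HOXA10/HOXA11 (chr7:27179902-27179921, minus strand): gccgCCACGAGATGGCgcac
HOXA11/HOXA13 (chr7:27196365-27196384, plus strand): gtcaACGCGAGGTGGCgccc
beyond HOXA13 (chr7:27235511-27235530, plus strand): atcgGCAGTGGGGGGCgcac
HOXB5/HOXB6 (chr17:48594037-48594056, minus strand): gtcgCCGGGAGGTGGCgcgc
HOXB9/HOXB13, near HOXB13 (chr17:48724687-48724706, plus strand): tctgTCGGAAGGGGGCgccc
HOXD13/HOXD12 (chr2:176097755-176097774, minus strand): atgcCCAGGAGATGGCgagc
HOXD9/HOXD8 (chr2:176127201-176127220, plus strand): ttggCCACTAGAGAGCgctg

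Of all 17 matches, 16 hold at least 1 CpG, the 10 shown among them, and the exception lies between HOXB9 and HOXB13 (chr17:48671800). The HOXA4 exon, HOXA10/HOXA11 and HOXA11/HOXA13 matches hold 3 each. The HOXB5/HOXB6 match holds 4. HOXA genes are read from the minus strand, so the HOXA11/HOXA13 match and the one beyond HOXA13 point against the genes, while the other HOXA matches point with them.

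Depth and run names bear on every comparison. Depth, as read from the step size of the fold values under an assumed genome size, came to 70.9 to 76.4M reads for IDH1WT +DSB (without replicate 3, whose steps gave no estimate) and 44.3 to 63.2M for IDH1R132H −DSB. It was 22.7 to 35.1M for IDH1WT −DSB, 23.7 to 34.6M for IDH1R132H +DSB and 26.6 to 41.7M for the TET1 lists. Run names stored in 9 of the 24 lists belong to another condition than the sample label. Lists labelled IDH1WT −DSB carry names of untreated IDH1R132H, and those labelled IDH1R132H −DSB carry names of untreated IDH1WT. TET1 dCD −DSB replicates 1 and 2 carry names of TET1 CD +DSB, another construct and treatment. Groups follow the labels, values under the run names are given where they change a result, and the comparison of IDH1R132H +DSB with IDH1WT +DSB has the same groups either way. Lists outnumber the biological replicates of the paper's figure legend in some conditions, though not the highest number of replicates in its reporting summary. The labels name no separate cultures, so p-values measure the spread between these samples only.

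Most HOX peaks were weak, as are most peaks of these lists, and a small set of sites was strong in nearly all lists. Peaks were ranked within each list by the deposited fold value, from rank 1 for the highest, and tied folds shared a mean rank. Of the 4589 peaks, 613 (13.4%) ranked within 20000, with a median fold of 51.4. Another 3583 (78.1%) ranked beyond 50000, with a median fold of 3.09. Lists held 111558 to 503609 peaks, so most peaks of every list rank beyond 50000. HOX peaks made up 0.0693% of all peaks and 0.120% to 0.135% of the 20000 strongest of a list. HOXA held 2250 of the peaks (49.0%), HOXB 1249 (27.2%), HOXC 588 (12.8%) and HOXD 502 (10.9%). The order differed among peaks within rank 20000, of which HOXA had 202, HOXB 168, HOXD 167 and HOXC 76, so that 33.3% of HOXD peaks but 8.98% of HOXA peaks were strong.

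Summits within 100 bp of each other were joined where they came from the 50000 strongest peaks of a list, which gave 94 sites, 33 in HOXA, 27 in HOXB, 16 in HOXC and 18 in HOXD. Of these, 29 were found in every list, and 26 ranked within 20000 in at least 13 of the lists and are called strong below (9 in HOXA, 7 in HOXB, 3 in HOXC and 7 in HOXD). Among the strong sites, 20 lay between HOX genes, 2 in coding exons (HOXA4 and HOXD10) and 4 beyond HOXA13 or HOXD13, and 23 ranked within 20000 in all 24 lists. The map of the windows shows that strong sites sat inside the gene arrays and at the 5′ ends of HOXA and HOXD, with none beyond HOXB13 or HOXC13 or beyond HOXB1, HOXC4 or HOXD1.

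**Figure D1:**
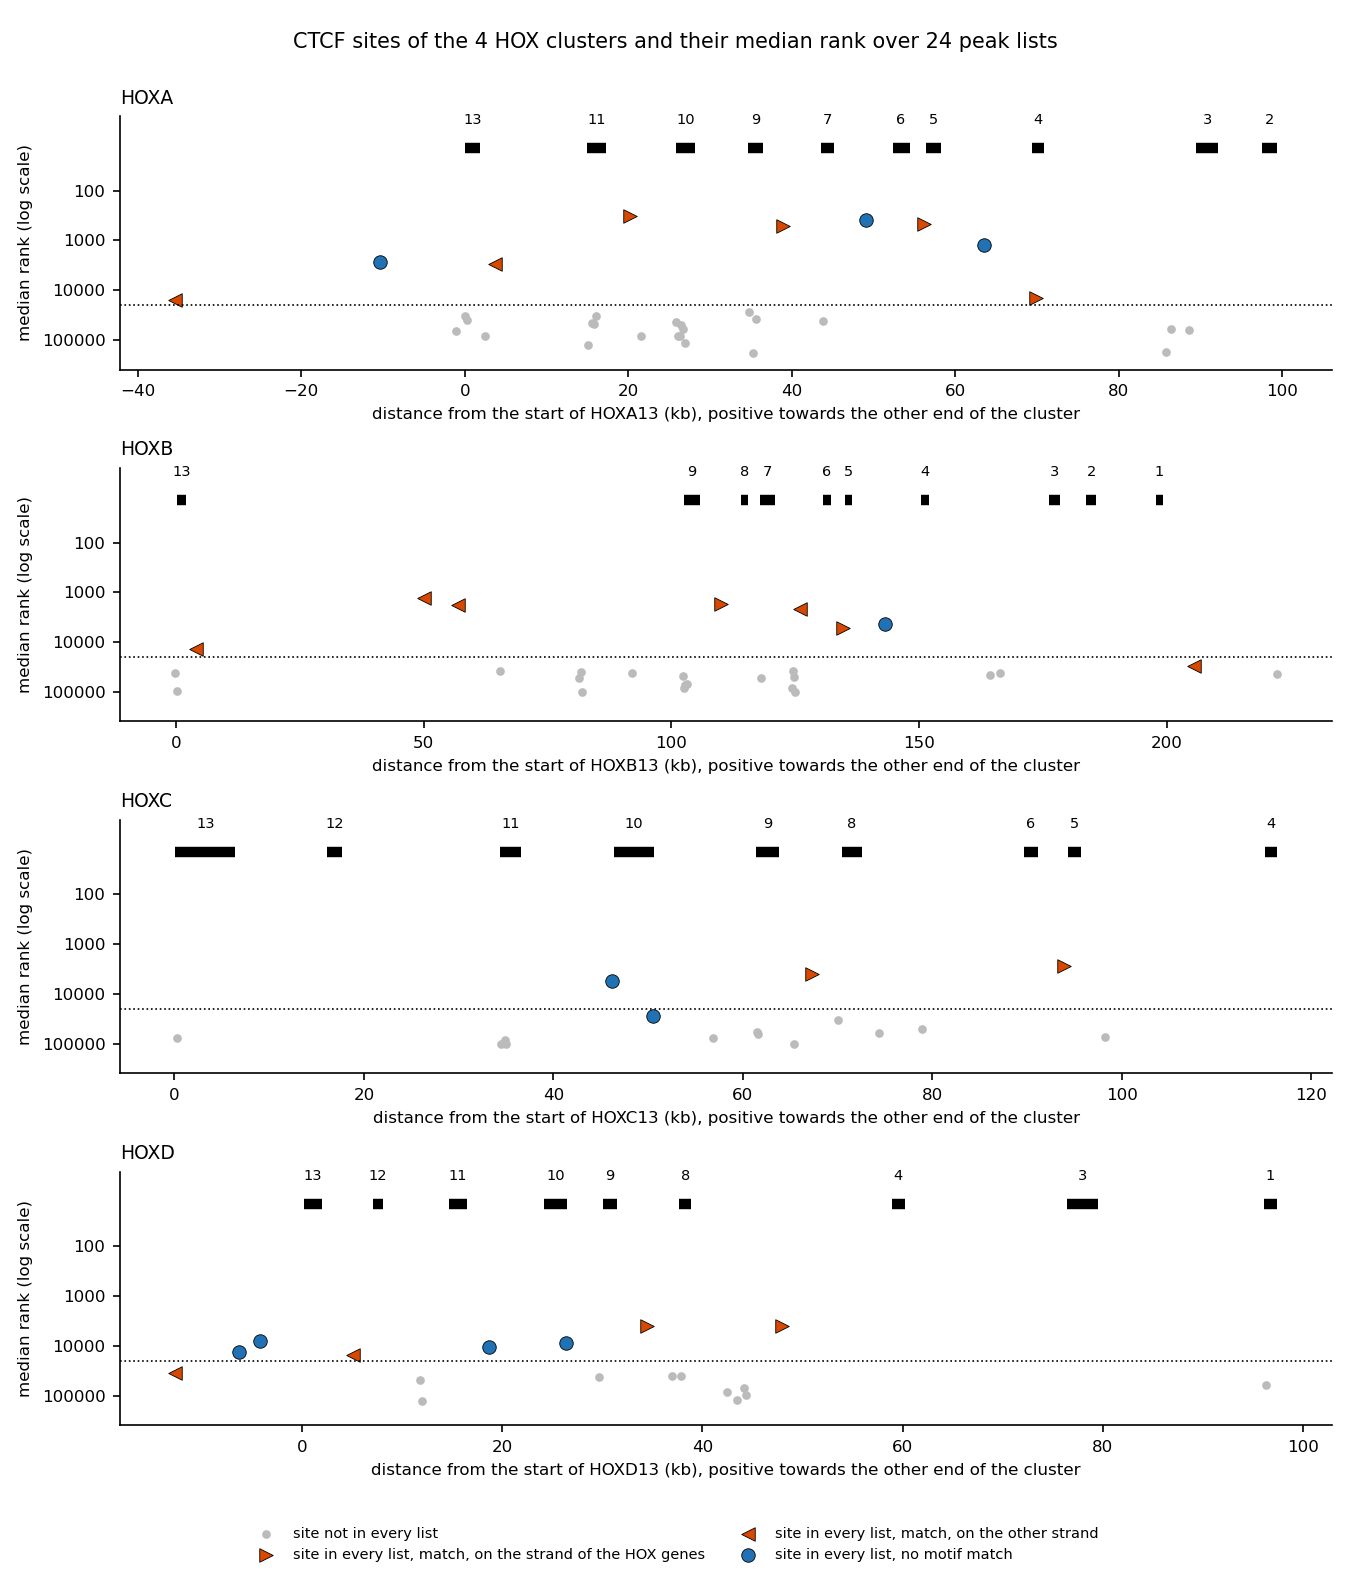
CTCF sites in the 4 HOX clusters, with distance in kb from the start of HOXA13, HOXB13, HOXC13 or HOXD13 on the x axis and the median rank over lists on a reversed log y axis; black bars are HOX coding spans with their gene number, orange triangles are sites in every list with a motif match pointing along or against the genes, blue circles are sites in every list with no match, grey dots are other sites, and the dotted line is rank 20000. The 4 sites with a median rank within 1000 all lie in HOXA, and the grey dots lie below the line.

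In HOXA, the best sites of any cluster lay between HOXA5 and HOXA11. The median rank over 24 lists was 331 between HOXA10 and HOXA11 (chr7:27179915, in an untranslated exon of HOXA10), 395 between HOXA6 and HOXA7 (chr7:27150958), 474.5 between HOXA5 and HOXA6 (chr7:27143930) and 514 between HOXA7 and HOXA9 (chr7:27161151). HOXA9 and HOXA10 are leukaemia-associated regulators of blood cell growth, and HOXA5 to HOXA7 pattern the trunk. Ranks at these 4 sites stayed between 22 and 1133.5 in all lists, and the HOXA6/HOXA7 site, at ranks 22 and 23 in IDH1WT +DSB replicates 4 and 3, was the highest of any HOX site in any list. Next came the HOXA4/HOXA5 site (chr7:27136585), with a median rank of 1248 and a range of 490 to 3771.

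HOXA13, which shapes the digits and the genital tract, had 5 sites within 10 kb of its start at chr7:27200091. The best lay 3725 bp into the gene body at chr7:27196366, between HOXA11 and HOXA13 in an untranslated exon of HOXA13, with a median rank of 2943 (range 1174.5 to 5800.5). Outside the cluster, a site at −10.4 kb from the HOXA13 start (chr7:27210516) had a median rank of 2752 (929.5 to 5649). A second, at −35.4 kb (chr7:27235522), was much weaker at 15912 (2706.5 to 24437.5).

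HOXB had 7 strong sites, and each ranked within 20000 in all 24 lists, as did the 3 of HOXC. Between HOXB4 and HOXB9 the median ranks were 4342 (HOXB4/HOXB5, chr17:48585549), 5264 (HOXB5/HOXB6, chr17:48594052), 2208 (HOXB6/HOXB7, chr17:48602751) and 1690 (HOXB8/HOXB9, chr17:48618768). The long gap between HOXB9 and HOXB13 held the best HOXB site, at chr17:48678586 (1302), and another at chr17:48671800 (1850), both in introns of LINC02086, a long noncoding RNA. HOXB13, a regulator of the prostate and distal gut, had 3 sites within 10 kb of its start at chr17:48728750, and only the one 4063 bp from the start was strong (chr17:48724687, in an untranslated exon of PRAC2), at a median rank of 13622 (6768.5 to 18166.5). HOXB1, which specifies part of the hindbrain, had 1 site within 10 kb of its start at chr17:48531011. That site lay 7834 bp away, beyond the cluster (chr17:48523177), and was found in every list but never within rank 20000, with a median rank of 30568 and a range of 21894 to 74009.5.

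HOXC had the fewest strong sites. They lay between HOXC6 and HOXC5 (chr12:54032734, median rank 2766), between HOXC9 and HOXC8 (chr12:54006116, 3910) and between HOXC11 and HOXC10 (chr12:53984986, 5616), the last at −160 bp from the HOXC10 start. A site in a coding exon of HOXC10 (chr12:53989308) was found in every list at a median rank of 27526, and its range of 18094 to 159754 was wide. HOXC13, which drives hair and nail keratins, had 1 site within 10 kb of its start at chr12:53938831. It lay in the coding exon at 303 bp (chr12:53939134), in 11 of 24 lists with a median rank of 78460. HOXC4 had 0 sites within 10 kb of its start at chr12:54053835, and no strong site of the cluster lay closer to that end than the HOXC6/HOXC5 site.

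In HOXD, strong sites flanked HOXD13 on both sides. HOXD13, a gene of digit formation, had 3 sites within 10 kb of its start at chr2:176092721, all strong: 2 outside the cluster at −4.22 kb (chr2:176088497, median rank 8042, range 2652 to 13702) and −6.31 kb (chr2:176086411, 13489, range 6352 to 18960), and 1 between HOXD13 and HOXD12 (chr2:176097774, 15225, range 10675.5 to 23310). A further site in an untranslated exon of EVX2, a homeobox gene next to HOXD13, was found in every list at a median rank of 35141 (chr2:176080010). Ranks improved towards the middle of the array, with medians of 10484 between HOXD11 and HOXD10 (chr2:176111387), 8683 in the HOXD10 coding exon (chr2:176119098), 4076 between HOXD9 and HOXD8 (chr2:176127202) and 3922 between HOXD8 and HOXD4 (chr2:176140651). HOXD1, at the other end, had 1 site within 10 kb of its start at chr2:176188668. It lay 363 bp into the coding exon (chr2:176189031) and was found in 8 of 24 lists, 4 of IDH1WT +DSB, 3 of IDH1R132H −DSB and 1 of IDH1R132H +DSB, with a median rank of 61266.

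The ends of the clusters therefore differed in their CTCF sites. HOXA13, HOXB13 and HOXD13 each had a strong site within 10 kb, at median ranks of 2943, 13622 and 8042, whereas HOXC13 had none. None of HOXB1, HOXC4 and HOXD1 had a strong site within 10 kb. These are positions and ranks, with no test.

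HOX sites were richer in CpG than CTCF sites in general. The median GC content of the stretch from 150 bases before to 150 bases after the summit was 60.1% at the 29 HOX sites found in every list and 45.8% at all 29021 such sites of the genome, and the median number of CpG was 19 against 4. A motif match was found at 17 of the 26 strong HOX sites (65.4%), in HOXA at 6 of 9, in HOXB at 6 of 7, in HOXC at 2 of 3 and in HOXD at 3 of 7. Among 18626 comparably strong sites of the genome the share was 86.4%. No match means only that no 20 bp stretch within 62 bp of the summit passed 10.8 bits, the score that 1.00% of control windows passed. Of the 17 matches, 16 (94.1%) held a CpG, with a median of 2, against 44.5% and a median of 0 at the comparably strong sites of the genome. 

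Motifs pointed both ways in 3 of the clusters. On the strand of the HOX genes lay 4 of 6 matches in HOXA, 2 of 6 in HOXB, 2 of 2 in HOXC and 2 of 3 in HOXD. In HOXA the change of direction fell at HOXA11/HOXA13, where the match and the one at −35.4 kb were the only ones on the plus strand. In HOXD the match against the genes was the one nearest HOXD13, between HOXD13 and HOXD12, while HOXD9/HOXD8 and HOXD8/HOXD4 pointed with them. All 3 of the HOXB9/HOXB13 matches lay on the plus strand, against the genes.

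The other 65 sites, not found in every list, differed from the strong HOX sites in place and motif. They were found in a median of 8 lists, 35 of them lay within 1 kb of a HOX gene start and 4 had a motif match. Their median GC content was 65.4%, with 23 CpG in the same stretch. By contrast, 5 of the 26 strong sites lay within 1 kb of a HOX start. Most frequent among the weaker sites were one beyond HOXB1 (chr17:48506458, 23 lists), one at −178 bp from the HOXB13 start (chr17:48728928, 22 lists), one in an intron of HOXA11 (chr7:27184000, 20 lists) and one between HOXC8 and HOXC6 (chr12:54017699, 20 lists). The number of the 65 with a peak was 18 to 29 in IDH1WT −DSB, 29 to 31 in IDH1WT +DSB, 24 to 33 in IDH1R132H −DSB, 19 to 28 in IDH1R132H +DSB, 19 to 24 in TET1 CD −DSB, 25 to 27 in TET1 CD +DSB, 21 to 25 in TET1 dCD −DSB and 12 to 16 in TET1 dCD +DSB. Sites of the genome not found in every list were not counted or described in this way, so these numbers describe the HOX sites only. IDH1WT +DSB and IDH1R132H −DSB, the deepest by estimate, had the highest counts on average. The lowest counts, in TET1 dCD +DSB, came at 26.6M to 27.9M reads, and IDH1R132H +DSB replicate 1 had 28 at 24.4M. The part of depth was not tested.

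The number of HOX peaks was compared between conditions first over whole lists. It was 172.5 ± 31.8 (SD, n = 2) in IDH1WT −DSB, 272.7 ± 65.3 (n = 3) in IDH1WT +DSB, 202.5 ± 59.8 (n = 3) in IDH1R132H −DSB and 178.8 ± 15.7 (n = 3) in IDH1R132H +DSB. IDH1WT +DSB was the highest, with 221 to 253 peaks in replicates 1, 3 and 4 and 348 in replicate 2. Its lists lay above those of IDH1WT −DSB, with 150 to 195, and of IDH1R132H +DSB, with 162 to 193. The gain of 100.2 peaks with DSB in IDH1WT gave p = 0.1 by a two-sided exact permutation test, the smallest the design allows. The other changes were −23.7 with DSB in IDH1R132H (p = 0.6, exact permutation), −31.9 for IDH1R132H minus IDH1WT over both treatments (p = 0.42, exact permutation) and −123.8 for the difference between the genotypes in the change with DSB (p = 0.075, exact permutation). None passed 0.05, which the tests of the change within a genotype could not (smallest possible p 0.1, exact permutation). List length also differs, from 111558 to 503609 peaks.

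Counted among the 20000 strongest peaks of each list, which holds list length equal, the numbers were close. All lists had 24 to 27 HOX peaks there, which is 0.120% to 0.135%, and HOXB had exactly 7 in every list. HOXA had 9 in every list of IDH1WT +DSB, IDH1R132H −DSB, TET1 CD and TET1 dCD −DSB. It had 7 or 8 in IDH1WT −DSB, 7 to 9 in IDH1R132H +DSB and 7 in both lists of TET1 dCD +DSB. The HOXA sites that dropped out were the HOXA4 coding exon and the one at −35.4 kb beyond HOXA13. Estimated depth was 22.7M to 35.1M reads in the 3 conditions with fewer than 9. All lists at 22.7M to 27.9M held 7 or 8. IDH1WT −DSB and IDH1R132H +DSB lists at 33.4M, 34.6M and 35.1M also held 7 or 8. IDH1R132H +DSB replicate 3, at 33.2M, and the TET1 lists at 30.8M to 41.7M held 9. Whether depth played a part was not tested.

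The difference between the genotypes in the change with DSB was −3.75 HOX peaks in the top 20000 (p = 0.01, two-sided exact permutation) and −3.08 for HOXA alone (p = 0.005, the smallest possible, adjusted p = 0.02 over the 4 clusters, exact permutation). It was made of a gain of 2.42 in IDH1WT (p = 0.1, exact permutation) and a loss of 1.33 in IDH1R132H (p = 0.3, exact permutation). Each of these p-values was the smallest its test could give. With groups taken from the run names the HOXA value became 0.417 (adjusted p = 1, exact permutation) and that over all clusters −0.25 (p = 0.905, exact permutation), so that this call rests on the labels of the untreated lists. For TET1 CD minus TET1 dCD the difference was −57.1 peaks in whole lists (p = 0.278, exact permutation, smallest possible 0.0556). In the top 20000 it was 1 (p = 0.333, exact permutation, the smallest possible).

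**Figure D2:**
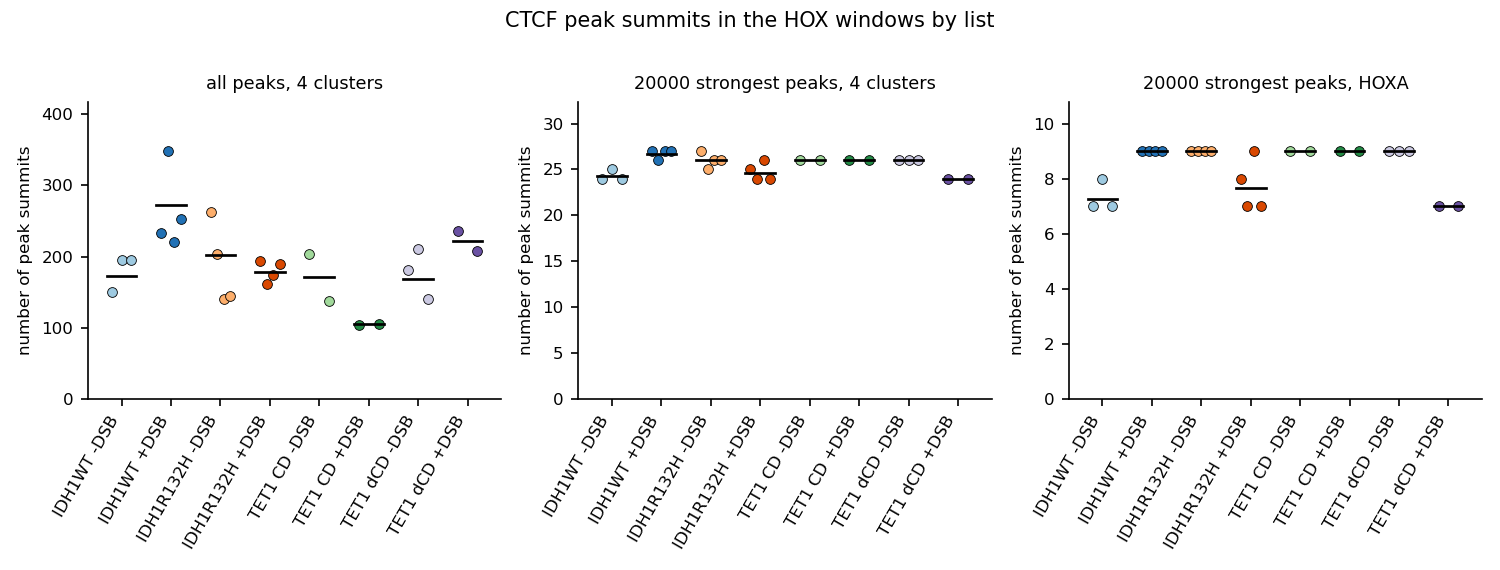
Number of HOX peak summits per list in the 8 conditions, over whole lists, among the 20000 strongest peaks and in HOXA among those, with a point for each list and a line for the mean of the samples. Whole lists run from 104 to 348 peaks, the 20000 strongest hold 24 to 27, and HOXA holds 7 to 9 of these.

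Ranks were then compared site by site. A limma fit on −log2(rank) was made over the 29021 sites found in all 24 lists, with 1 mean for each condition, and p-values were adjusted over all of these sites by the Benjamini-Hochberg method. The 29 HOX sites of every list could be tested, while the other 65 could not. Where a sample was left out or run names gave the groups, counts of called HOX sites are printed without the share of all sites. Those counts are not set against the genome. A positive difference means a rank nearer 1 in the group named first, and a difference of 1 is a factor of 2 in rank. The same fit on log2 fold, centred on each list's median, and on centred log2 fold divided by its SD over the tested sites, served as other scales. The SD of log2 fold was 0.777 to 0.960 in IDH1WT +DSB and 0.810 to 0.880 in IDH1R132H −DSB but 1.09 to 1.14 in IDH1WT −DSB and 1.10 to 1.13 in IDH1R132H +DSB, so that a site above the median can lose rank while its centred fold rises.

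In IDH1R132H +DSB against IDH1WT +DSB, 15 of 29 HOX sites (51.7%) changed in rank, 3 towards 1 and 12 away from it. Of all tested sites 46.8% changed, 24.7% towards 1 and 22.1% away, so the share of HOX sites called was near that of the genome. The median HOX difference was −0.79, against 0.00 over all sites. The direction depended on the scale. On the centred fold scale 19 HOX sites were higher and 5 lower in IDH1R132H, with a median of 0.62 against 0.26 over all sites. After division by the SD 13 were higher and 5 lower. Over all sites 70% were called on the centred fold scale, 13526 higher and 6794 lower. After division by the SD 61.5% of all sites were called, 12314 higher and 5523 lower.

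Called in the same direction on all 3 scales were 8 HOX sites. The share of all tested sites called alike on all 3 scales was not counted, here or in the comparisons below. Such counts therefore describe the HOX sites only and are not set against the genome. Further from rank 1 in IDH1R132H +DSB were the HOXA4 coding exon, the −35.4 kb site beyond HOXA13, the site beyond HOXB1, the site near HOXB13 and the HOXC10 coding exon. Nearer 1 were HOXB5/HOXB6, HOXD9/HOXD8 and the HOXD10 coding exon.

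The called site with the smallest p was in the coding exon of HOXA4, a gene that patterns cervical vertebrae. Its ranks in IDH1WT +DSB were 4521.5, 4438.5, 2605 and 2212, and in IDH1R132H +DSB 27209.5, 23158, 18211.5 and 23389. The groups did not overlap, and the log2 rank difference was −2.69 ± 0.29 (SE; limma adjusted p = 5.6e-06), with a 95% interval of −3.31 to −2.08. It was −1.55 on the centred fold scale. GC content around this summit was 77.1%, with 35 CpG in that stretch, and its match, printed above, holds 3 CpG.

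**Figure D3:**
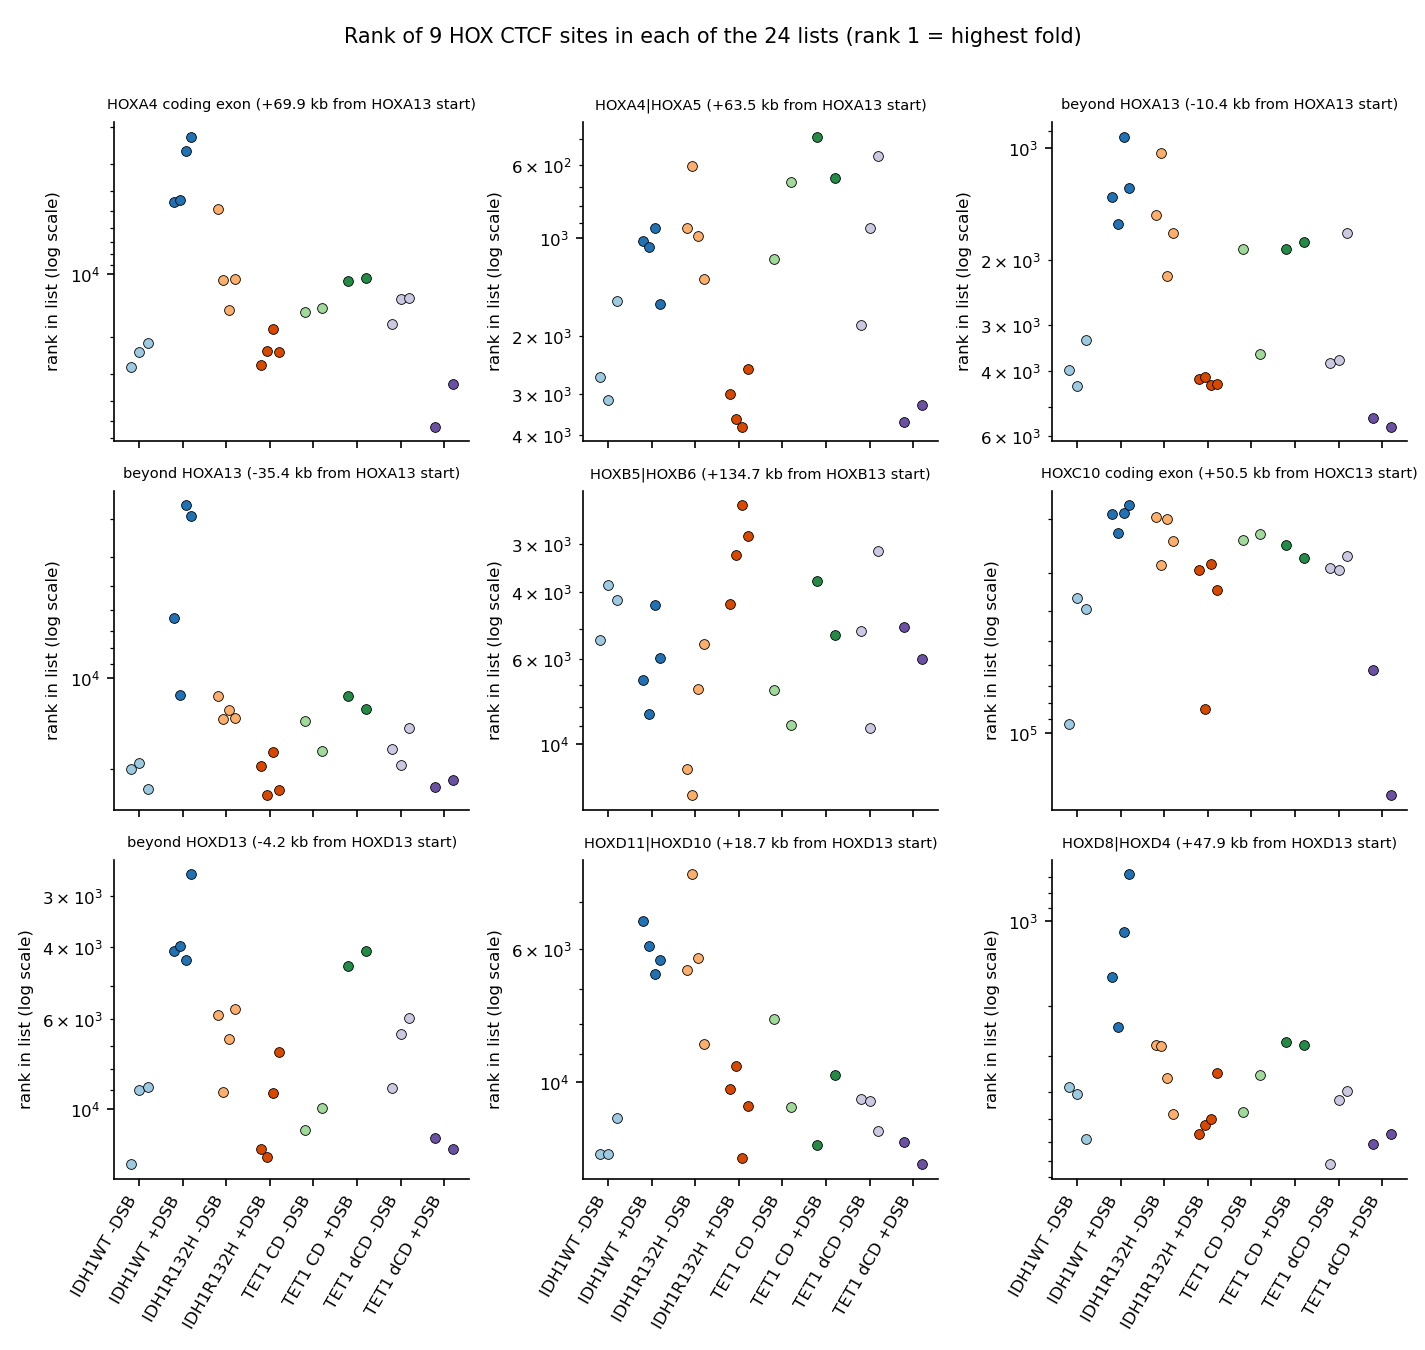
Rank of 9 HOX sites called in the comparisons, 1 point for each of the 24 lists, by condition on the x axis, on a reversed log y axis so that points higher up are nearer rank 1. At the HOXA4 coding exon the 4 IDH1WT +DSB lists sit at 2212 to 4521.5 and the 4 IDH1R132H +DSB lists at 18211.5 to 27209.5.

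Beyond HOXA13, the −35.4 kb site had ranks of 6346, 11435.5, 2706.5 and 2926.5 in IDH1WT +DSB and 19501, 24437.5, 17609.5 and 23389 in IDH1R132H +DSB. Every IDH1WT list ranked it above every IDH1R132H list, and the difference was −1.86 ± 0.31 (SE; limma adjusted p = 0.000219), with −1.16 on the centred fold scale. Near HOXB13, ranks were 10667, 6768.5, 10630 and 8386.5 in IDH1WT +DSB and 16553, 14659, 13753 and 16221 in IDH1R132H +DSB. Here too the groups were apart, with a difference of −0.80 ± 0.19 (SE; limma adjusted p = 0.00251). The site beyond HOXB1 ranked at 21894 to 26176 in IDH1WT +DSB and at 28934.5 to 64772 in IDH1R132H +DSB, a difference of −0.99 ± 0.34 (SE; limma adjusted p = 0.0232). These 3 sites lay further down the list in IDH1R132H +DSB on every scale.

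Inside the arrays, HOXD9/HOXD8 moved the other way. It ranked at 7533.5, 8197, 11788 and 10876 in IDH1WT +DSB and at 2895.5, 4830, 4153.5 and 3238.5 in IDH1R132H +DSB, a difference of 1.26 ± 0.28 (SE; limma adjusted p = 0.00211). HOXB5/HOXB6 ranked at 4320 to 8366.5 in IDH1WT +DSB and 2378 to 4312 in IDH1R132H +DSB, a difference of 1.00 ± 0.33 (SE; limma adjusted p = 0.0195). Neither pair of groups overlapped. HOXD9/HOXD8 had the lowest GC content of the strong HOX sites, 37.9%, while HOXB5/HOXB6 had 61.5%.

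At some sites the call held only on the rank scale. Beyond HOXD13 at −4.22 kb, ranks were 4098.5, 3971.5, 4320 and 2652 in IDH1WT +DSB and 12573.5, 13142, 9138.5 and 7241.5 in IDH1R132H +DSB, which did not overlap. The difference in rank was −1.54 ± 0.23 (SE; limma adjusted p = 9.7e-05), but on the centred fold scale it was −0.14 (limma adjusted p = 0.34). HOXD8/HOXD4, with ranks of 686.5 to 2377 in IDH1WT +DSB and 3433 to 5620 in IDH1R132H +DSB, differed by −1.74 in rank (limma adjusted p = 0.000665) and by 0.36 on the centred fold scale, the opposite direction. The −10.4 kb site beyond HOXA13, at 929.5 to 1600.5 against 4154.5 to 4351, differed by −1.67 in rank (limma adjusted p = 0.0014) and by 0.42 on the centred fold scale. The high-ranking HOXA6/HOXA7 and HOXA10/HOXA11 sites turned in the same way, at −2.71 and −1.86 in rank and 0.73 and 0.77 in centred fold.

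The rank difference moved with base composition. Its correlation with GC content around the summit was −0.45 over the 29 HOX sites (Spearman −0.38) and −0.40 over all 29021 sites (Spearman −0.39), a description over sites that share their libraries. Estimated depth did not overlap either, at 70.9M to 76.4M reads in IDH1WT +DSB and 23.7M to 34.6M in IDH1R132H +DSB, and genotype and depth cannot be told apart here.

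**Figure D4:**
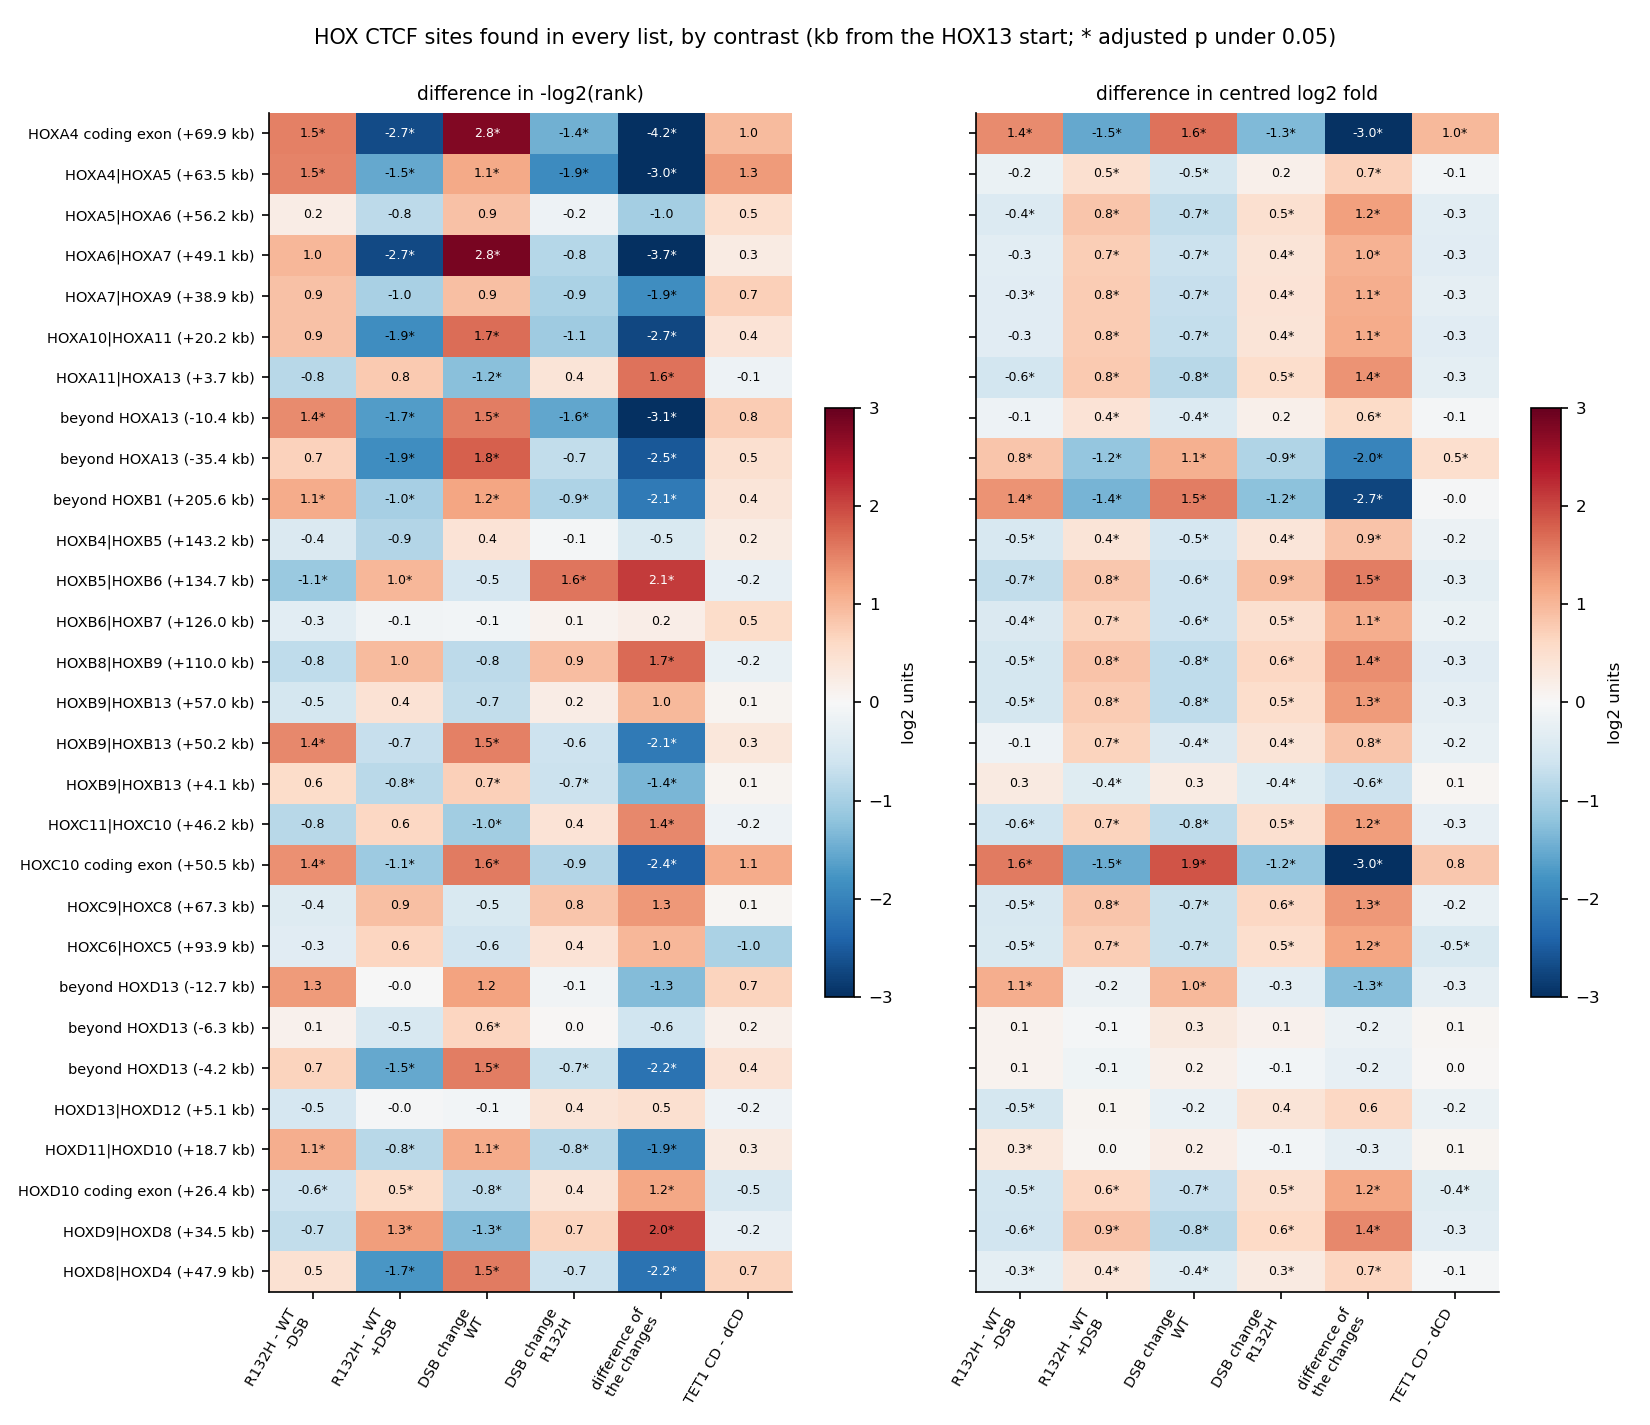
Differences at the 29 HOX sites found in every list in the 6 comparisons, as −log2 rank on the left and centred log2 fold on the right, with red for a higher value in the group named first, blue for a lower one, colour ending at 3 on either side, and an asterisk for an adjusted p under 0.05. With DSB, 12 sites are called lower in IDH1R132H by rank, whereas 19 are called higher by centred fold. Over all sites 6421 are called lower by rank and 13526 higher by centred fold.

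Without DSB, 9 of 29 HOX sites differed between the genotypes, 7 nearer rank 1 and 2 further from it in the lists labelled IDH1R132H. Over all sites 25.2% differed, 15.0% nearer and 10.3% further. The median HOX difference was 0.46 on the rank scale and −0.34 on the centred fold scale, where 6 sites were called higher and 15 lower. Over all sites 49.5% were called on the centred fold scale, 5436 higher and 8932 lower. Sites called in the same direction on all 3 scales were 5: the HOXA4 and HOXC10 coding exons and HOXD11/HOXD10 nearer 1, and HOXB5/HOXB6 and the HOXD10 coding exon further from it.

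At the HOXA4 coding exon the ranks were 27832, 23479 and 21380.5 in IDH1WT −DSB and 4911, 10690.5, 14799.5 and 10554.5 in IDH1R132H −DSB. The difference was 1.52 ± 0.33 (SE; limma adjusted p = 0.00344), opposite to that with DSB. HOXD11/HOXD10 ranked at 13241, 13243 and 11502.5 in IDH1WT −DSB and 6491.5, 4490.5, 6206.5 and 8629.5 in IDH1R132H −DSB, a difference of 1.10 ± 0.22 (SE; limma adjusted p = 0.00223). Neither pair of groups overlapped. The HOXC10 coding exon, at 93141.5, 36201.5 and 39327 in IDH1WT −DSB and 19735.5 to 28271.5 in IDH1R132H −DSB, differed by 1.37 ± 0.44 (SE; limma adjusted p = 0.0316). These directions turn over when the groups follow the run names, and without IDH1WT −DSB replicate 2 only 1 HOX site was called.

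In rank, but not on the centred fold scale, 2 further HOXA sites were nearer 1 in IDH1R132H −DSB. They were HOXA4/HOXA5 at 1.49 ± 0.43 (SE; limma adjusted p = 0.018), with −0.19 in centred fold, and the −10.4 kb site beyond HOXA13 at 1.43 ± 0.40 (SE; limma adjusted p = 0.0147), with −0.15 in centred fold. HOXA5, which lies next to the first of them, is needed for lung and airway formation.

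With DSB in IDH1WT, 18 of 29 HOX sites changed rank, 14 nearer 1 and 4 further from it. Of all tested sites 42.8% changed, 20.9% nearer and 21.9% further. HOXA took the largest part, with 6 of its 9 sites nearer 1 and 1 further, and the median HOX difference was 0.87. On the centred fold scale the direction was the other one, with 5 sites higher and 19 lower. There 65.7% of all sites were called, 6415 higher and 12642 lower. Without IDH1WT −DSB replicate 2, 6 HOX sites were called, and 0 with groups from the run names.

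On all 3 scales 8 HOX sites changed alike with DSB in IDH1WT, and 4 of these moved nearer 1: the HOXA4 and HOXC10 coding exons, the −35.4 kb site beyond HOXA13 and the site beyond HOXB1. The HOXA4 exon went from mean rank 24972 to 3639, a difference of 2.78 ± 0.33 (SE; limma adjusted p = 2e-05). The −35.4 kb site, at 20022.5, 19168 and 23258.5 in IDH1WT −DSB, gained 1.80 ± 0.35 (SE; limma adjusted p = 0.000852). HOXD9/HOXD8, the HOXD10 coding exon, HOXC11/HOXC10 and HOXA11/HOXA13 moved away from 1 on all 3 scales. HOXA11/HOXA13, the best site of HOXA13, ranked at 1174.5, 3134 and 2172.5 in IDH1WT −DSB and 2447.5, 5800.5, 5399 and 4725 in IDH1WT +DSB, which overlap, with a difference of −1.25 ± 0.47 (SE; limma adjusted p = 0.0424).

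In HOXD, the −4.22 kb site beyond HOXD13 ranked at 13702, 9012.5 and 8842 in IDH1WT −DSB, below every IDH1WT +DSB list, and gained 1.54 ± 0.26 in rank (SE; limma adjusted p = 0.000332) with 0.16 in centred fold. HOXD11/HOXD10 gained 1.12 ± 0.22 in rank (SE; limma adjusted p = 0.00102) with 0.20 in centred fold. HOXD8/HOXD4 gained 1.55 ± 0.37 in rank (SE; limma adjusted p = 0.00393) but lost on the centred fold scale, at −0.39. Of these 3 HOXD sites, none was called on the centred fold scale in the direction of its rank.

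With DSB in IDH1R132H, 8 of 29 HOX sites changed rank, 1 nearer 1 and 7 further from it. Of all tested sites 28.1% changed, 12.4% nearer and 15.6% further, so the share of HOX sites called was that of the genome. The site nearer 1 was HOXB5/HOXB6, at 11633.5, 13641.5, 7199 and 5464.5 in IDH1R132H −DSB and 4312, 3214, 2378 and 2865 with DSB, a change of 1.59 ± 0.33 (SE; limma adjusted p = 0.0021). It held on all 3 scales, as did the losses of the HOXA4 coding exon, at −1.44 ± 0.29 (SE; limma adjusted p = 0.00199), and of the site near HOXB13, at −0.66 ± 0.19 (SE; limma adjusted p = 0.0151). With groups from the run names 0 HOX sites were called.

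Losses in rank at 3 further sites turned or faded on the centred fold scale. HOXA4/HOXA5 went from 932.5, 601, 987 and 1335 to 2998.5, 3572, 3771 and 2514.5, a change of −1.89 ± 0.38 in rank (SE; limma adjusted p = 0.0019) and 0.16 in centred fold. The −10.4 kb site beyond HOXA13 ranked at 1029 to 2210 in IDH1R132H −DSB and at 4154.5 to 4351 with DSB, a change of −1.55 ± 0.35 in rank (SE; limma adjusted p = 0.00412) and 0.16 in centred fold. HOXD11/HOXD10 changed by −0.82 ± 0.20 in rank (SE; limma adjusted p = 0.00565) and −0.07 in centred fold. In none of the 3 did the groups of lists overlap in rank.

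The change with DSB differed between the genotypes at 20 of 29 HOX sites, 6 towards 1 and 14 away from it in IDH1R132H relative to IDH1WT. Over all sites 57.1% differed, 29.0% towards 1 and 28.1% away. In HOXA 8 of 9 sites were called, 7 away from 1, and the median over HOX sites was −1.31. The centred fold scale gave 19 sites higher and 6 lower, with a median of 0.87 against 0.44 over all sites. There 75.1% of all sites were called, 13940 higher and 7855 lower. On all 3 scales 11 sites were called alike, 5 away from 1 and 6 towards it.

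Among those 11, the HOXA4 coding exon differed by −4.22 ± 0.44 in rank (SE; limma adjusted p = 1.2e-06) and the −35.4 kb site beyond HOXA13 by −2.55 ± 0.47 (SE; limma adjusted p = 0.000255). The sites beyond HOXB1 (−2.12) and near HOXB13 (−1.36) and the HOXC10 coding exon (−2.45) followed in the same direction. The 6 in the other direction were HOXB5/HOXB6 (2.11), HOXD9/HOXD8 (1.99), HOXB8/HOXB9 (1.71), HOXA11/HOXA13 (1.62), HOXC11/HOXC10 (1.45) and the HOXD10 coding exon (1.16). HOXD11/HOXD10 (−1.94 ± 0.30, limma adjusted p = 5e-05) and the −4.22 kb site beyond HOXD13 (−2.21 ± 0.35, limma adjusted p = 7.2e-05) were called in rank, with −0.27 and −0.24 in centred fold, where neither was called. The −10.4 kb site beyond HOXA13 was called in opposite directions, at −3.09 ± 0.53 in rank (SE; limma adjusted p = 0.000149) and 0.57 in centred fold (limma adjusted p = 0.00259). This difference uses the untreated lists, and with groups from the run names 0 HOX sites were called.

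TET1 CD and TET1 dCD, both in IDH1R132H cells, were compared over both treatments. Of the 2 samples of TET1 dCD −DSB, 1 is the pair of lists with run names of TET1 CD +DSB. No HOX site was called in rank by limma. An unadjusted limma p under 0.05 was found at 5 of 29, and the share over all sites was not counted. Of all sites 0.193% were called in rank, 0.186% nearer 1 and 0.00689% further from it in TET1 CD. The 2 HOX sites with the smallest p were HOXA4/HOXA5, at 1.27 ± 0.37 (SE; limma adjusted p = 0.0926), and the HOXA4 coding exon, at 0.95 ± 0.28 (SE; limma adjusted p = 0.0954). At the HOXA4 exon the ranks were 15150 and 14431 in TET1 CD −DSB, 10799 and 10415 in TET1 CD +DSB, 17187, 13201.5 and 13016.5 in TET1 dCD −DSB and 53204 and 33250 in TET1 dCD +DSB. Groups overlapped without DSB and were apart with it, and the 2 lists of TET1 CD +DSB count as 1 sample. The 95% interval of the difference there was 0.36 to 1.55. On the centred fold scale 4 HOX sites were called, against 8.14% of all sites: the HOXA4 exon at 0.97 (limma adjusted p = 0.0214) and the −35.4 kb site beyond HOXA13 at 0.51 (limma adjusted p = 0.0468) were higher in TET1 CD, and HOXC6/HOXC5 at −0.46 (limma adjusted p = 0.0442) and the HOXD10 coding exon at −0.36 (limma adjusted p = 0.0418) were lower. After division by the SD no site was called, in HOX or over all sites.

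At the HOX end genes the TET1 comparison was narrow for some sites and wide for others. The difference was 0.08 near HOXB13 (95% interval −0.30 to 0.46), 0.43 at −4.22 kb beyond HOXD13 (−0.05 to 0.91), −0.14 at HOXA11/HOXA13 (−1.01 to 0.72) and 0.36 beyond HOXB1 (−0.33 to 1.05). In TET1 CD −DSB the site beyond HOXB1 ranked at 24370 and 24154, in TET1 CD +DSB at 48612.5 and 55964.5, and in TET1 dCD +DSB at 32200.5 and 74009.5. None of these 4 sites was called in rank.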

How the data were processed

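CTCF ChIP-seq lists of peaks in GRCh38 were used as deposited. Per the paper, the authors mapped reads with Bowtie2 (2.3.4.1 in the submitters' processing notes, with cutadapt 1.18) and called peaks per sample with MACS2 against input. The fold (a ratio), −log10 p, −log10 q and score of each peak are the values the authors deposited. The fold served to rank peaks within a list, the −log10 q as a filter in alternatives, and the score was not used. The 4C-seq samples and IDH1WT −DSB replicate 1 were not analysed here.

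Sites were joined summits (100 bp) of the 50000 strongest peaks per list. Ranks were tested with limma 3.58.1 (R 4.3.3, eBayes with trend), and counts with exact permutation (scipy 1.17.1). The fit was tested on simulated data. Genes come from GENCODE. The depth estimate assumes a genome size. The text names the best site within 10 kb of each end gene (1 end gene is not reported here), every strong site, and at most 5 called sites per comparison with the smallest p. Sites called on all 3 scales, the weaker sites given by position and the values of TET1 CD at end genes were chosen after their values were seen. The members and lists were chosen with earlier results of these data known. The figure legend of the paper states 2 biological replicates for CTCF ChIP-seq, fewer than the 3 samples counted in 3 conditions. Its reporting summary gives 2 replicates in one place and 2 to 4 in another. Same-numbered lists correlated from −0.12 to 0.34 in their deviations from the group means. All 3 such pairs of IDH1WT −DSB and +DSB lay above 0.2, but replicates 3 and 4 are 1 sample in each, and elsewhere a pair lay below 0.1, so the numbers were not taken as pairs. Alternatives were other site sets, scales, thresholds and groupings, each list as a sample, a replicate block and leaving out each sample.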

Additional observations from a re-analysis of the deposited data

Results flagged for a closer look

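The results listed here are differences between IDH1R132H and IDH1WT in the change with DSB that passed their test. Among the 20000 strongest peaks the difference was −3.75 HOX peaks over all clusters and −3.08 in HOXA. Among the 10000 strongest the HOXA value did not pass an adjusted p of 0.05 (exact permutation). In the rank fit the difference in the change with DSB was called at 20 HOX sites, of 29 tested, and at 57.1% of all sites. The sites with the smallest p were the HOXA4 coding exon (−4.22), HOXD11/HOXD10 (−1.94), the −4.22 kb site beyond HOXD13 (−2.21), and the sites beyond HOXA13 at −10.4 kb (−3.09) and −35.4 kb (−2.55), all as log2 rank differences. Each of these uses the untreated lists, whose run names go against their labels. No condition has more than 3 samples, and no sample was tested as an outlier of its group. Pairs of lists were compared by the squared difference in read numbers relative to the sampling noise. For TET1 dCD −DSB replicate 3 this ratio was 5.79 and 6.17 against replicates 1 and 2. For IDH1WT +DSB replicate 2 it was 3.48, 4.22 and 4.51 against replicates 1, 3 and 4. All other pairs stood at 2.00 or below.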

How the results depend on the processing

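Of the alternatives, 2 were chosen after seeing the data: peaks per 100000 and log2 fold divided by its SD. Over comparisons, 185 values kept their direction and their side of 0.05, or stayed within 1.5 times for counts. Another 23 counts moved further, 8 values turned, 7 passed 0.05 only in the alternative and 1 only in the main setting. For named sites 291 values stayed the same, 44 were weaker and 21 turned. Of these, under the run names, 5 stayed the same, 12 were weaker and 9 turned.

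For HOX peaks in whole lists, the change with DSB in IDH1R132H ranged from −53.7 to 6.08 when a sample was left out and was 6.33 under the run names. The difference between genotypes passed 0.05 at −log10 q of at least 2 (−154.4, p = 0.015, exact permutation) or 10 (−38.6, p = 0.01, exact permutation), in the top 50000 (−28.7, p = 0.005, exact permutation) and per 100000 peaks (−77.6, p = 0.005, exact permutation), and ranged from −153.8 to −86.2 with a sample left out. TET1 CD minus dCD turned to 8.88 at −log10 q of at least 10, 9.88 in the top 50000 and 16.6 per 100000 peaks. In the top 20000, the genotype difference was −0.375 to 0.125 with a sample left out and −1.88 under the run names (p = 0.01, exact permutation). There the DSB change in IDH1WT was 2.42 with every list a sample (p = 0.0286, exact permutation), that in IDH1R132H 0.417 under the run names, the difference −0.25 and that of HOXA 0.417.

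For HOX sites called in the rank fit, centred fold gave 21 for the genotypes without DSB, 24 with DSB, 22 for the DSB change in IDH1R132H and 4 for TET1. In the same order it called 49.5%, 70%, 55.5% and 8.14% of all sites. Sites in at least 4 lists (80 in HOX) gave 30 for the genotypes with DSB, 29 for the DSB change in IDH1WT, 13 in IDH1R132H, 37 for the difference and 3 for TET1. For this and the alternatives below, the share of all sites called is not printed, so their counts are not set against the genome. Every list as a sample gave 13 for the DSB change in IDH1R132H and 4 for TET1. Run names gave 0 for both DSB changes and for their difference. Leaving out a sample gave 1 to 7 (genotypes without DSB), 13 to 15 (with DSB), 6 to 18 (DSB in IDH1WT), 5 to 8 (DSB in IDH1R132H), 15 to 21 (difference) and 0 to 3 (TET1). With the replicate block, which also takes every list as a sample, 15 HOX sites were called for the DSB change in IDH1R132H and 6 for TET1, and the other counts stayed within 1.5 times (19 for the DSB change in IDH1WT). The HOXA difference in the top 20000 was −2.92 with the block (adjusted p = 0.125, exact permutation).

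Of the named sites, these turned on centred fold: HOXD8/HOXD4 (0.36 with DSB, −0.39 for DSB in IDH1WT), the −10.4 kb site beyond HOXA13 (0.42 with DSB, −0.15 without, 0.16 for DSB in IDH1R132H, 0.57 for the difference) and HOXA4/HOXA5 (−0.19 without DSB, 0.16 for DSB in IDH1R132H). After division by the SD, HOXD8/HOXD4 stood at 0.13 and −0.15 and the −10.4 kb site at 0.16 and 0.010. Under the run names all 5 sites without DSB turned, to −1.10 (HOXD11/HOXD10), −1.52 (HOXA4 exon), −1.43 (−10.4 kb), −1.49 (HOXA4/HOXA5) and −1.37 (HOXC10 exon), as did DSB in IDH1R132H at the HOXA4 exon (0.087) and HOXD11/HOXD10 (0.28, and 0.26 for the difference). Turning follows from the swapped groups without DSB; otherwise the cause was not tested. A site absent from any list could not enter the fit, whatever the reason.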
